A study of Mus musculus with 6 samples.

Results

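Interferon-stimulated genes are the genes that cells switch on after an interferon signal, most of them coding for proteins that sense or block viruses. The set described here holds 39 mouse genes, among the 22482 genes of the deposited mRNA table, found by exact symbol. It covers the Ifit, Oas and Oasl, Mx, guanylate-binding protein and immunity-related GTPase families, the viperin locus, the nucleic acid sensors, the ISG15 system, the membrane proteins and the transcription factors of the pathway. All 39 were found, and 38 reached 0.5 FPKM in 3 or more of the 6 libraries and were tested. FPKM counts fragments per unit of transcript length and of library size. Mx2 was the gene that did not pass.

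The cells were vascular smooth muscle cells from the aorta of C57BL/6 mice, grown with 10% serum and collected 48 h after adenovirus. The labels name 3 libraries as Myocd knockdown, with ADV in their titles, and 3 as cells given a negative control virus, with Ctrl in their titles. The design text of the series speaks instead of wildtype cells for the second group. If that group received no virus, effects of virus and of Myocd cannot be told apart. No label describes how the knockdown virus was built. Myocd, the coactivator of smooth muscle genes, was high where the labels would have it low. The libraries labelled knockdown had 131.7, 130.1 and 145.5 FPKM of it, and those labelled control had 0.0355, 0 and 0.125 FPKM. Every direction below therefore takes the libraries labelled control as the base. Whether libraries of the same group stem from different cultures or animals is not in the labels. P-values therefore reflect only how far these libraries spread, and that spread may be technical.

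The depth was 7528170 to 9793781 recovered fragments per library over protein-coding genes. Of the smooth muscle markers, Myocd among them, 4 of 8 tested were higher by limma, against 1.83% of all tested genes. The summed level of these markers was 724 to 763 FPKM in the libraries labelled knockdown against 293 to 332 FPKM in those labelled control. Most of that gap came from Myocd itself and Acta2. Acta2, smooth muscle actin, had 340.2 ± 7.16 against 67.2 ± 4.16 FPKM (SD, n = 3 each), whereas Myh11, the smooth muscle myosin heavy chain, had a mean under 0.1 FPKM in both groups. Des and Lmod1 were also higher, with log2 fold changes of 0.20 and 2.22. Myocd and Lmod1 met the expression filter only through the libraries labelled knockdown, where they are high. Myocd is also the gene that the labels name, so the share of 4 of 8 is partly set by the filter and the design. Smtn, Mylk, Tpm2 and Tagln were not called by limma (log2 fold changes -0.02, 0.08, 0.09 and 4.23). Tagln was called by edgeR (adjusted p = 0.00255) but not by DESeq2 (adjusted p = 0.113). Markers of immune cells, which can themselves carry interferon-stimulated transcripts, were mostly near 0. The macrophage markers summed to 21.2 to 24.8 against 22.5 to 26.9 FPKM, carried by Cd14 and Cd68, and 11 of 14 had a mean under 0.1 FPKM, with C1qc and Tyrobp listed at 0 in all 6 libraries. The dendritic cell markers, with Bst2 left out because it is in the set, summed to 0 in every library labelled knockdown and to at most 0.521 FPKM in those labelled control. T, NK and B cell markers summed to at most 0.151 and 0.270 FPKM, and neutrophil markers to at most 1.18 and 0 FPKM. Endothelial markers summed to 8.40 to 10.7 against 8.54 to 9.50 FPKM, with 2 of 10 tested: Flt1 was not called, and Vwf was higher by limma but not by edgeR or DESeq2 (edgeR adjusted p = 0.0869). Vwf, too, met the filter only through the libraries labelled knockdown. Fibroblast markers summed to 1283 to 1520 against 1225 to 1396 FPKM, with 7 of 10 tested and 0 called by limma. Most of that sum was Ly6a, at 1194 ± 136 against 1083 ± 98.3 FPKM, and Lum, Pi16 and Thy1 were too low to test. Dcn had 5.61 against 3.29 FPKM and was called by DESeq2 (adjusted p = 0.0361) but not by edgeR (adjusted p = 0.0536). Cd34 had 34.0 against 40.6 FPKM and was called by both (edgeR adjusted p = 0.0357, DESeq2 adjusted p = 0.0322). The part of these markers in the results below was not tested. In bulk RNA, fewer cells of a type and less RNA per cell cannot be told apart.

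Type I interferons bind a receptor made of IFNAR1 and IFNAR2, whose kinases are JAK1 and TYK2. The signal activates the transcription factor complex ISGF3, with STAT2 and IRF9 among its parts, which binds the interferon-stimulated response element (ISRE) in the promoters of its targets. IRF1 and IRF7 bind related sequences, and IRF7 also drives interferon genes after viral nucleic acid is sensed. Interferon gamma acts through gamma-activated sites (GAS), the usual route to the guanylate-binding proteins and immunity-related GTPases.

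The set split in both directions. Across all 11612 tested genes, 1.83% passed the limma test at an adjusted p under 0.05 in the higher direction and 1.61% in the lower direction. Of the 38 tested members, 7 were higher (18.4%), 2 were lower (5.26%) and 29 were not called. The higher members were Ifi44l, Rsad2, Oasl1, Cmpk2, Irf7, Zbp1 and Gbp2, and the lower ones were Ifit3 and Oas1a. Log2 fold changes of the higher members ran from 0.30 to 1.10, with 2.46 for Ifi44l, which rests on few fragments, and those of the lower members were -0.24 and -0.26. Ifi44l also met the expression filter only through the libraries labelled knockdown, where it is high. Its place among the 7 is therefore not independent of the filter. At an unadjusted limma p under 0.05 there were 8 members with a positive and 8 with a negative value, and 22.4% of all tested genes reached that level. When 1 library was left out, 1 to 3 members were still higher and 0 to 1 lower, and limma without both replicate 3 libraries called 3 higher and 0 lower. Calls over all tested genes fell as well in these fits, from 213 higher and 187 lower. They numbered 29 to 104 higher and 13 to 88 lower without 1 library, and 48 and 28 without both replicate 3 libraries. The members' share of all fragments was 0.569% to 0.585% in the libraries labelled control and 0.574% to 0.585% in those labelled knockdown. Their summed level was 3124 ± 23.9 FPKM in the libraries labelled knockdown, against 3008 ± 49.4 FPKM (SD, n = 3 each). The shares overlapped between the groups and the summed levels did not, and Ifitm3 alone had 848.7 ± 41.8 against 731.1 ± 28.7 FPKM.

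Most members sat close to their control level. The median log2 fold change over the 38 tested members was -0.01, equal at that precision to the median over all tested genes, and the median absolute value was 0.12 against 0.13 over all tested genes. An absolute log2 fold change under 0.2 was found for 26 members. Of the 38, 18 had a positive and 20 a negative value. The 3 libraries of each group did not overlap for 10 members that lay above (26.3%, against 13.3% of all tested genes) and 9 that lay below (23.7%, against 15.6% of all tested genes).

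**Figure D1:**
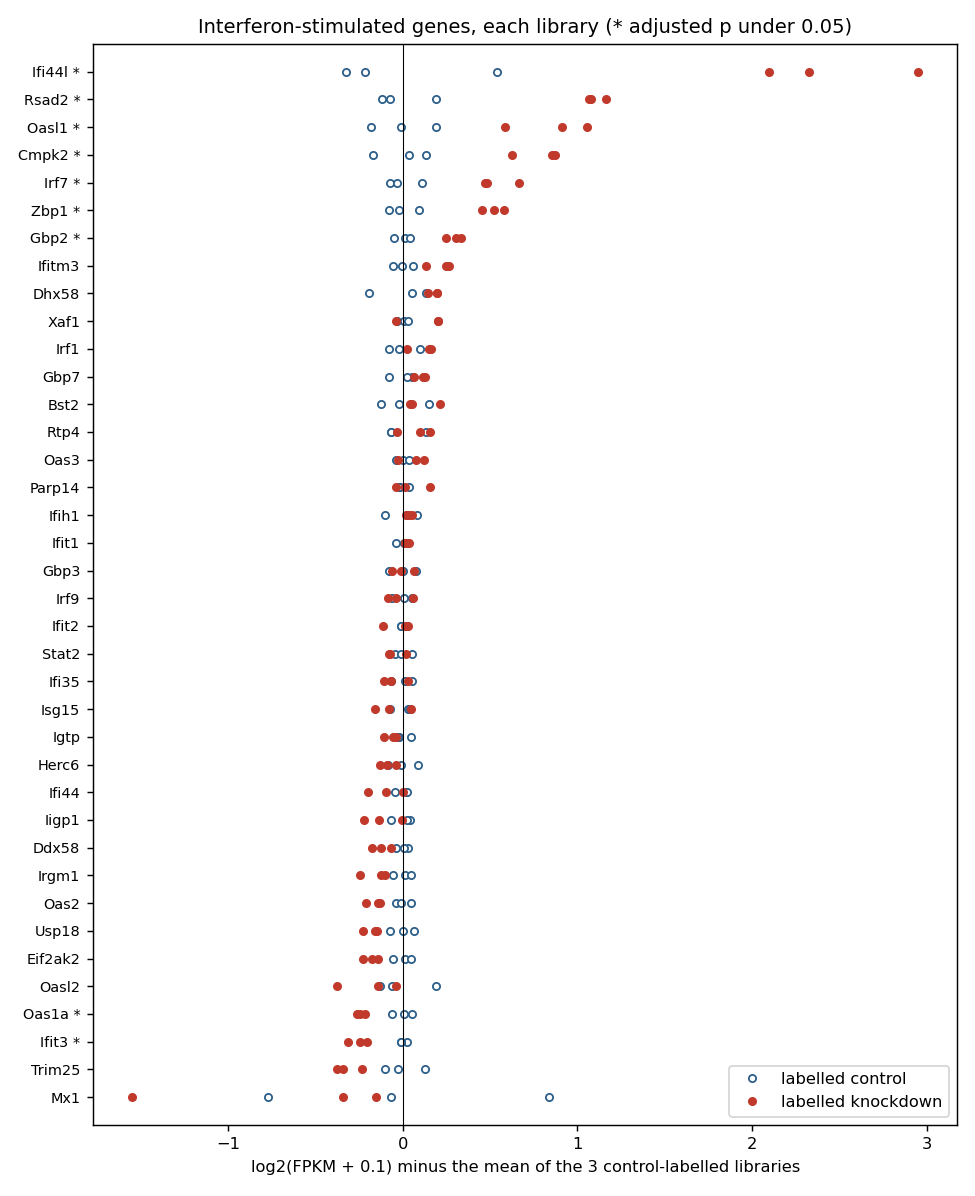
Each row is 1 tested member and each point 1 library, placed by log2(FPKM + 0.1) minus the mean of the 3 libraries labelled control. Open blue circles are libraries labelled control, filled red circles those labelled knockdown, and a star marks an adjusted p under 0.05. In 10 rows, the 7 starred ones at the top among them, all filled points lie to the right of the open ones, and in 9 rows, Oas1a and Ifit3 among them, they all lie to the left.

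Promoter windows of 250 bases before to 50 bases after the gene start, from RefSeq on build GRCm38.p6, were found for 30 of the 39 members. The ISRE letters, GAAA repeated after any 2 bases and read on both strands, occurred in 17 of these 30 windows (56.7%) and in 3.99% of the windows of all 27018 genes. The GAS letters TTCNNNGAA, which read the same way on both strands, occurred in 9 of 30 windows (30%) and in 9.55% of all. An NF-kB site, searched on both strands, was found in 7 of 30 (23.3%), against 9.55% of all. The CArG box, bound by serum response factor, the partner of myocardin, was found in 0 of 30 windows, against 1.81% of all. The ISRE letters stood in the windows of 2 of 6 higher members (Rsad2 and Gbp2), of both lower members and of 13 of the 22 uncalled members. Higher, lower and uncalled members thus all included windows with an ISRE match. A match is only a run of letters in the window, and nothing in these data measures binding there.

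The stretches that hold these letters are shown for the called members and for their uncalled relatives, 5′ to 3′ on the strand of the gene, with the ISRE letters of either orientation in capitals. Rsad2 and Gbp2 are shown for the 140 bases before the start of the window's transcript, and the others for 30 bases around the match. Isg15 and Igtp are added as uncalled members of other families. Each is from GRCm38.p6, at these places:
Rsad2 (higher), chr12:26456453-26456592, minus strand: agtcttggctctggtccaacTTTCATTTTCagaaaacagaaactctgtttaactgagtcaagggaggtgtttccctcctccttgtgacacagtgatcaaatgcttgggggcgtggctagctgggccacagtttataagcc
Gbp2 (higher), chr3:142620523-142620662, plus strand: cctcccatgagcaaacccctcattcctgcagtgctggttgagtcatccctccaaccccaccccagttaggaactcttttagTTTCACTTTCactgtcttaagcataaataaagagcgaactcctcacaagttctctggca
Gbp3 (not called), chr3:142559992-142560021, plus strand: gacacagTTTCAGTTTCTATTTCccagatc
Gbp7 (not called), chr3:142530273-142530302, plus strand: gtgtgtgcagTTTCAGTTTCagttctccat
Ifit3 (lower), far match, chr19:34583363-34583392, plus strand: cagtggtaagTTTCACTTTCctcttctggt
Ifit3 (lower), near match, chr19:34583397-34583426, plus strand: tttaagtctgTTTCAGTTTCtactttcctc
Ifit1 (not called), far match, chr19:34640775-34640804, plus strand: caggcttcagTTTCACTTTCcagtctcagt
Ifit1 (not called), near match, chr19:34640794-34640823, plus strand: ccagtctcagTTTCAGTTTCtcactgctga
Oas1a (lower), chr5:120907526-120907555, minus strand: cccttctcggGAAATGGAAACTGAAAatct
Oas3 (not called), chr5:120777715-120777744, minus strand: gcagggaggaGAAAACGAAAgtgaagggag
Isg15 (not called), chr4:156200871-156200900, minus strand: gtagGAAAAGGAAACCGAAACAGAAAatag
Igtp (not called), chr11:58199512-58199541, plus strand: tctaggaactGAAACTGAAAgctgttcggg

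The same 10 letters, TTTCACTTTC, stood in the windows of Gbp2, which was higher, of Ifit3, which was lower, and of Ifit1, which was not called. The letters TTTCAGTTTC, in this orientation, likewise stood in Ifit3, which was lower, and in Ifit1, Gbp3, Gbp7 and Stat2, which were not called. Oas1a held 2 overlapping matches and Isg15 held 3. The RefSeq spans of Ifit3, Gbp3, Oas1a and Oas3 begin upstream of the start used for their window.

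The viperin locus held the member with the smallest p of the set. Rsad2 encodes viperin, a radical SAM enzyme that makes a chain-terminating nucleotide against viral polymerases, and Cmpk2 encodes the mitochondrial nucleotide kinase that supplies its substrate. Rsad2 had 18.4, 18.6 and 19.7 FPKM in the 3 libraries labelled knockdown, compared with 8.32, 8.03 and 10.0 FPKM in those labelled control. All 3 libraries labelled knockdown lay above all 3 of the others, with a log2 fold change of 1.10 (SE 0.10, limma adjusted p = 0.00503).

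Cmpk2 had 4.93, 4.99 and 4.19 FPKM against 2.95, 2.37 and 2.75 FPKM, again without overlap. The log2 difference for Cmpk2 was 0.78 (SE 0.14, limma adjusted p = 0.0354). Rsad2, on the minus strand, and Cmpk2, on the plus strand, are neighbours on chromosome 12, with 12664 bases between them on GRCm38. Rsad2 passed the test under all 20 alternatives tried, whereas Cmpk2 passed in none of the 6 fits that left out 1 library, with limma adjusted p from 0.0546 to 0.12.

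**Figure D2:**
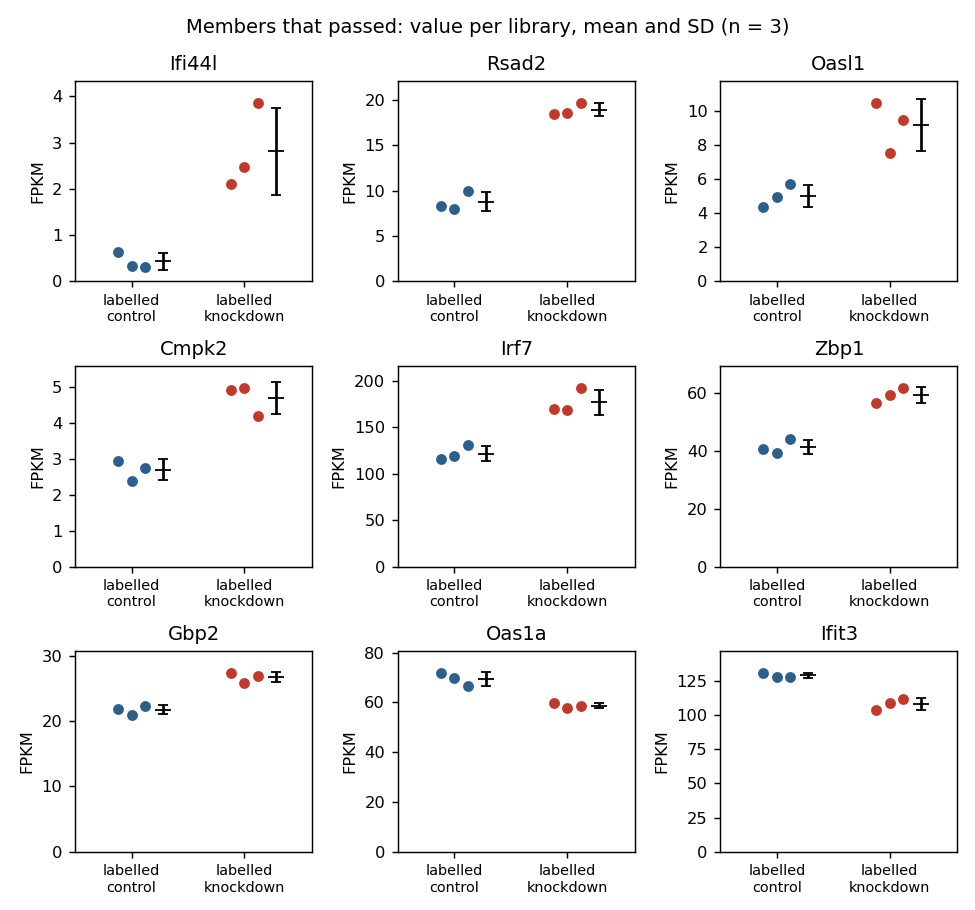
Each panel is 1 called member, with FPKM on an axis from 0, 1 point per library and the mean with its SD (n = 3) beside the points. Rsad2 shows 18.4 to 19.7 against 8.03 to 10.0 FPKM, while Ifit3 and Oas1a show a small downward step.

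Among the transcription factors, Irf7 rose and the other 3 members were not called. Irf7 had 170.0, 168.7 and 192.9 FPKM in libraries labelled knockdown and 115.5, 119.0 and 131.1 FPKM in those labelled control. The ranges were separate, and the log2 fold change came to 0.54 (SE 0.07, limma adjusted p = 0.0141). The call was lost, with limma adjusted p between 0.0516 and 0.0706, when replicate 1 or 2 of either group was left out.

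Irf1, a factor that also acts downstream of interferon gamma, had 26.7 ± 1.38 against 24.7 ± 1.55 FPKM (SD, n = 3 each), and its groups overlapped. The 95% interval of its log2 fold change ran from -0.05 to 0.27. Irf9, the DNA-binding part of ISGF3, had 39.9 ± 2.02 against 40.5 ± 1.63 FPKM, with an interval from -0.16 to 0.11. Stat2, its partner in ISGF3, had 47.5 ± 1.81 against 49.0 ± 1.70 FPKM, with an interval from -0.16 to 0.08. The ratio of Irf7 to Irf9 within a library was 4.44 ± 0.132 in the libraries labelled knockdown and 3.01 ± 0.103 in those labelled control.

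Within the Oas and Oasl family, members moved in opposite directions. Oas1a, Oas2 and Oas3 make 2′-5′ oligoadenylates that activate RNase L, and Oasl1 and Oasl2 are related proteins with a ubiquitin-like end. Oasl1 had 10.5, 7.53 and 9.46 FPKM in the libraries labelled knockdown, against 4.39, 4.95 and 5.70 FPKM in those labelled control. All 3 libraries labelled knockdown were higher, with a log2 fold change of 0.85 (SE 0.15, limma adjusted p = 0.0354). Its neighbour Oasl2, 10897 bases away on chromosome 5, had 222.3 ± 25.9 against 252.7 ± 30.4 FPKM with overlapping groups and was not called.

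Oas1a had 59.8, 57.7 and 58.6 FPKM in the 3 libraries labelled knockdown, compared with 71.9, 69.8 and 66.5 FPKM in those labelled control. All 3 libraries labelled knockdown lay below the others, and the log2 fold change came to -0.24 (SE 0.05, limma adjusted p = 0.0416). Oas2 had 65.0 ± 1.95 against 72.6 ± 2.32 FPKM, also without overlap, and missed the threshold (limma adjusted p = 0.104). Oas3, which lies between Oas2 and Oas1a, had 51.4 ± 2.63 against 49.4 ± 1.24 FPKM with overlap. Neither Oasl1 nor Oas1a passed in any of the 6 fits that left out 1 library, with limma adjusted p from 0.0575 to 0.11 for Oasl1 and from 0.0571 to 0.133 for Oas1a. Oas1a has close paralogs, so reads shared between copies may have been split in the counting. Its paralog Oas1g, outside the set, had 25.0 FPKM against 30.9 FPKM and missed the threshold (limma adjusted p = 0.0555).

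The Ifit genes, of which Ifit1 encodes a protein that binds viral RNA lacking the host's cap methylation, gave 1 lower member and 2 uncalled ones. Ifit3 had 103.7, 108.7 and 111.8 FPKM in libraries labelled knockdown and 131.0, 128.2 and 127.9 FPKM in those labelled control. The groups were fully separate, with a log2 fold change of -0.26 (SE 0.04, limma adjusted p = 0.0278). Without 1 library the call held only when replicate 3 of the libraries labelled knockdown was left out (limma adjusted p = 0.0427), and the other 5 fits gave adjusted p up to 0.106.

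Ifit1 had 123.6 ± 1.23 against 121.7 ± 3.10 FPKM, and Ifit2 had 25.2 ± 1.34 against 25.6 ± 0.352 FPKM (SD, n = 3 each). Both groups overlapped for each gene. The 95% interval of the log2 fold change ran from -0.07 to 0.11 for Ifit1 and from -0.16 to 0.12 for Ifit2. The 3 members follow each other on chromosome 19, with 6584 bases between Ifit2 and Ifit3 and 51906 bases between Ifit3 and Ifit1. Genes outside the set may lie in these gaps. Ifit3 and Ifit1 have the ISRE matches shown above with the same letters.

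The guanylate-binding proteins, large GTPases that attack the membranes around intracellular pathogens, gave 1 higher member of 3. Gbp2 had 27.4, 25.8 and 26.9 FPKM in the libraries labelled knockdown, against 21.9, 20.9 and 22.3 FPKM in those labelled control. The groups did not overlap, with a log2 fold change of 0.30 (SE 0.06, limma adjusted p = 0.0403). No fit that left out 1 library kept the call, with limma adjusted p from 0.0725 to 0.124. Gbp3, the member nearest to Gbp2 at 47449 bases, had 42.3 ± 1.80 against 42.3 ± 2.23 FPKM. Gbp7 had 18.5 ± 0.451 against 17.2 ± 0.830 FPKM, without overlap and not called. The immunity-related GTPases, a second group of interferon gamma targets, had 0 of 3 called by limma, edgeR or DESeq2 and 1 at an unadjusted limma p under 0.05, the level that 22.4% of all tested genes reached. Irgm1 had 123.3 ± 6.58 against 137.3 ± 4.89 FPKM and Igtp 30.1 ± 0.773 against 31.5 ± 0.866 FPKM, both below without overlap, and Iigp1 had 11.2 ± 0.866 against 12.1 ± 0.484 FPKM.

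**Figure D3:**
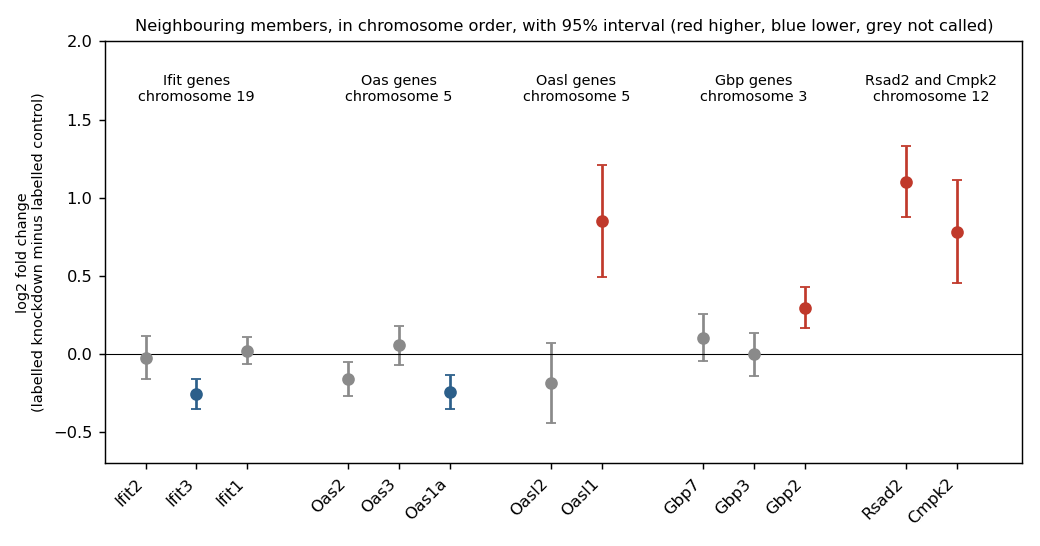
Log2 fold change with its 95% interval from limma for members of the set that follow each other on a chromosome, grouped by cluster in chromosome order. Genes outside the set, which may lie between them, are not shown. Red points passed in the higher direction, blue points in the lower direction and grey points did not pass. The points of Oasl1 and Gbp2 stand above their grey neighbours, those of Ifit3 and Oas1a stand below theirs, and Rsad2 and Cmpk2 are both red. Some intervals of neighbours overlap, among them those of Oas1a and Oas2.

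Ratios within a library set neighbours and relatives side by side without any scaling between libraries. Of 11 ratios, chosen with the values known, 10 did not overlap between the groups. All have a member called by limma as their first gene, so this count is no separate support for those calls. Each of those 10 reached an exact two-sided permutation p of 0.1, the smallest that 3 against 3 libraries allow, so none could pass 0.05 before or after adjustment. Oasl1 over Oasl2 was 0.0540, 0.0330 and 0.0386 in the libraries labelled knockdown and 0.0191, 0.0205 and 0.0199 in those labelled control. Ifit3 over Ifit1 was 0.843, 0.870 and 0.910 against 1.07, 1.08 and 1.03. Every Oasl1 ratio was higher and every Ifit3 ratio lower in the libraries labelled knockdown. Gbp2 over Gbp3 was 0.632 ± 0.0365 against 0.513 ± 0.0106, and Oas1a over Oas3 was 1.15 ± 0.0659 against 1.41 ± 0.0442 (SD, n = 3 each). Rsad2 over Ifit3 was 0.175 ± 0.00355 against 0.0681 ± 0.00870. The ratio that overlapped was Oas1a over Oas2, at 0.904 ± 0.0422 against 0.957 ± 0.0543 (exact permutation p = 0.3).

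Of the nucleic acid sensors, Zbp1 rose and the RIG-I-like receptors were not called. Zbp1 senses Z-form nucleic acid and can start necroptosis. It had 56.4, 59.2 and 61.7 FPKM in the 3 libraries labelled knockdown, compared with 40.7, 39.1 and 44.0 FPKM in those labelled control. No library labelled knockdown fell within the control range, and the log2 fold change came to 0.52 (SE 0.06, limma adjusted p = 0.0106). The call was lost without replicate 2 of the libraries labelled knockdown and without replicate 1 or 2 of those labelled control (limma adjusted p = 0.0581, 0.0603 and 0.0539).

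Ddx58, which encodes RIG-I, had 82.2 ± 3.23 against 89.5 ± 2.08 FPKM, below without overlap and not called (limma adjusted p = 0.176). Ifih1, which encodes MDA5, had 22.7 ± 0.301 against 22.2 ± 1.44 FPKM with overlap. Dhx58, which encodes LGP2, had 23.1 ± 0.498 against 20.5 ± 2.36 FPKM, above without overlap and not called. Eif2ak2, the kinase PKR that stops translation when it binds double-stranded RNA, had 79.4 ± 2.37 against 89.9 ± 3.28 FPKM, below without overlap (limma adjusted p = 0.0819).

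The ISG15 system, in which a ubiquitin-like protein is attached to other proteins, had 0 of 4 members called by limma, while edgeR called 2 and DESeq2 1, and 2 had an unadjusted limma p under 0.05 (22.4% over all tested genes). Calls over all genes were 5.45% higher and 4.5% lower with edgeR, and 3.78% and 3.15% with DESeq2. Isg15 itself had 140.6, 133.0 and 153.8 FPKM in libraries labelled knockdown and 141.4, 151.6 and 153.0 FPKM in those labelled control. These ranges overlapped, and the 95% interval of the log2 fold change ran from -0.21 to 0.08. Usp18, which removes ISG15 and also restrains the interferon receptor, had 59.3 ± 1.73 against 67.1 ± 3.22 FPKM, and Trim25, the ligase that acts on RIG-I, had 22.2 ± 1.19 against 27.7 ± 2.31 FPKM. Both lay below without overlap and missed the threshold (limma adjusted p = 0.105 and 0.0734). Herc6, the mouse ISG15 ligase, had 14.1 ± 0.460 against 15.0 ± 0.903 FPKM.

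Of the 3 membrane proteins 0 passed the limma test, 1 had an unadjusted p under 0.05, against 22.4% of all tested genes, and edgeR and DESeq2 each called 1. Across all genes, 5.45% were called higher and 4.5% lower by edgeR, and 3.78% and 3.15% by DESeq2. Ifitm3, which blocks viral fusion, was the most abundant of all members, with 878.2, 867.2 and 800.9 FPKM against 729.1, 760.8 and 703.5 FPKM. The groups did not overlap, and the limma adjusted p was 0.0634. Bst2, the tetherin that holds budding virus at the surface, had 262.6 ± 17.5 against 245.1 ± 23.9 FPKM with overlap. Rtp4 had 46.2 ± 3.03 against 44.0 ± 3.66 FPKM, also with overlap.

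The Ifi44 pair gave 1 uncalled and 1 higher member. Ifi44 had 92.6 ± 6.38 against 99.1 ± 2.49 FPKM and overlapped. Ifi44l, 8826 bases away on chromosome 3, had 2.10, 2.47 and 3.87 FPKM against 0.647, 0.342 and 0.310 FPKM, a log2 fold change of 2.46 (SE 0.34, limma adjusted p = 0.0171). Those values rest on 6, 7 and 10 fragments against 2, 1 and 1 fragments. Scaled by depth, the ratio of 23 to 4 fragments was 6.38, with an exact 95% interval from 2.18 to 25.4 that covers counting error only. The Ifi44l call held in 1 of the 6 fits that left out a library, the fit without replicate 1 of the libraries labelled control (limma adjusted p = 0.0422). The remaining members overlapped: Ifi35 with 51.4 ± 2.56 against 53.0 ± 2.28 FPKM, Parp14 with 19.8 ± 1.43 against 19.1 ± 0.427 FPKM, and Xaf1 with 64.0 ± 6.06 against 58.7 ± 1.32 FPKM.

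Mx1 and Mx2, dynamin-like GTPases, are listed by RefSeq as transcribed pseudogenes in the reference mouse strain. Mx1 had 0.554 ± 0.285 against 0.972 ± 0.595 FPKM with overlap, from 9, 6 and 3 fragments against 13, 22 and 26. The ratio of 18 to 61 fragments, scaled by depth, was 0.328, with an interval from 0.182 to 0.562 for counting error only. Mx2 had 0 fragments in all 6 libraries in the mRNA table. In the separate table of noncoding transcripts, however, the RefSeq noncoding transcript of Mx2 had 11.4, 9.56 and 9.99 FPKM in the libraries labelled knockdown, against 14.4, 14.7 and 14.5 FPKM in those labelled control. The groups did not overlap, and the transcript missed the threshold with a log2 fold change of -0.50 (SE 0.11, limma adjusted p = 0.0713).

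The table of noncoding transcripts pairs 15 transcripts with a member, as antisense or overlapping neighbours, and 6 of them had enough signal to test. By limma 0 of the 6 passed, against 4.26% of all 4955 tested transcripts, and 2 had an unadjusted p under 0.05, against 16.2%. The other transcript at that level overlaps Iigp1 and had 0.170 ± 0.138 against 0.577 ± 0.333 FPKM. A transcript of Pigy antisense to Herc6 had 3.55 ± 0.475 against 1.75 ± 1.29 FPKM (limma adjusted p = 0.345). Whether strand was used in counting is not given in the sources used here, so reads of a member and of its overlapping or antisense transcript cannot be told apart.

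For most members both deposited measures gave nearly the same difference. The deposited counts, turned back into fragment numbers, were tested with edgeR, a count model, for 37 members. Here 7 were called higher, against 5.45% of all genes in that fit, and 7 lower, against 4.5%. Of the 9 members called by limma, 8 were called by edgeR in the same direction, and Ifi44l was too low to enter the edgeR fit. Members called by edgeR but not by limma were Ifitm3, higher, and Trim25, Oas2, Eif2ak2, Usp18 and Mx1, lower (edgeR adjusted p = 0.00133, 0.00401, 0.0204, 0.0267, 0.0434 and 0.0451). DESeq2 called 7 members higher and 5 lower, against 3.78% and 3.15% of all genes. The falling members were thus as many as the rising ones with edgeR and fewer with DESeq2 and limma. Among the other filters, scalings and trend settings run on all 6 libraries, the limma call was lost without the expression filter for Oasl1 and Cmpk2, with median centring for Oas1a, and without the intensity trend for Irf7, Ifit3, Oas1a, Oasl1 and Gbp2.

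The log2 fold changes from FPKM and from fragments differed by more than 0.1 for 5 of the 37 members. Oasl1 had 0.85 from FPKM and 0.69 from fragments, and Irf7 had 0.54 and 0.66. Xaf1 and Oasl2, neither of them called, changed sign: Xaf1 had 0.12 from FPKM and -0.15 from fragments, and Oasl2 had -0.18 and 0.02. Mx1, at a few fragments per library, had -0.68 and -1.58.

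**Figure D4:**
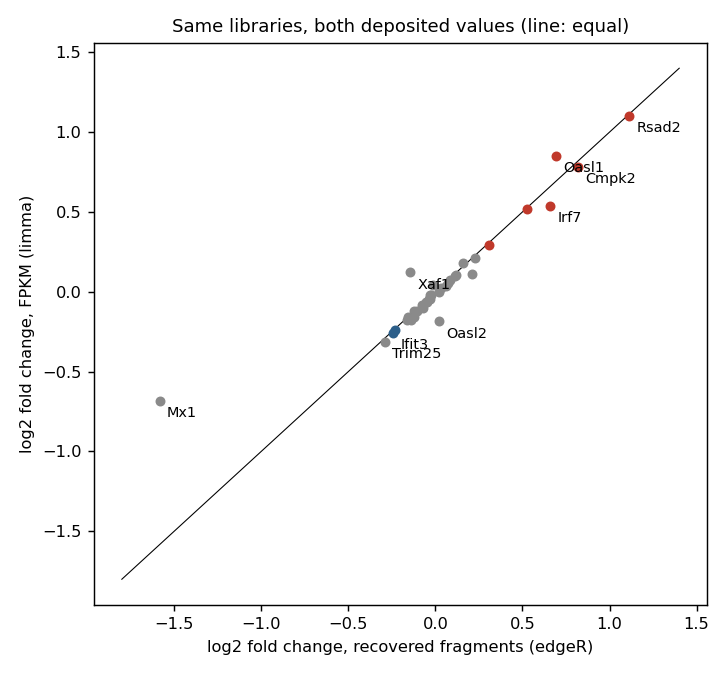
Each point is 1 of the 37 members in both fits, with the edgeR log2 fold change from recovered fragments on the x axis and the limma log2 fold change from FPKM on the y axis. The line marks equal values, and red and blue mark members called higher and lower by limma. Most points lie on the line, and Mx1, Xaf1 and Oasl2 stand farthest from it.

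The steps of the pathway above the members were read from lists of 70 genes, with 83 further interferon-stimulated genes beside them, and 113 of these 153 were tested. By limma 6 were higher and 4 lower, and 3.44% of all tested genes passed in either direction. The interferon ligands were nearly silent: of 19 ligand genes, 14 were listed at 0 in all 6 libraries, and the highest value of any was 1.43 FPKM. Ifnb1 had 0, 0 and 0.386 FPKM in the 3 libraries labelled knockdown, compared with 0.620, 0 and 0 FPKM in those labelled control. Ifne, the 1 ligand that met the filter, had 0.626, 0.211 and 1.43 against 0.578, 0 and 0 FPKM, with overlap. Its values rest on 3, 1 and 6 fragments against 3, 0 and 0 fragments, too few to enter the edgeR fit.

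At the receptor, Ifnar2 had 22.2, 24.1 and 21.5 FPKM against 18.1, 17.7 and 18.7 FPKM. The groups did not overlap, with a log2 fold change of 0.32 (SE 0.07, limma adjusted p = 0.0492), and no fit without 1 library kept the call (0.0669 to 0.143). It was the 1 gene called by limma of 8 tested receptors and kinases, against 1.83% of all tested genes in the higher direction. At an unadjusted limma p under 0.05 there were 4 of the 8, against 22.4% of all tested genes. Jak1, Tyk2 and Ifngr2 were not called (limma adjusted p = 0.0916, 0.198 and 0.202).

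Of 6 tested STAT and IRF genes reported here outside the set, 0 passed by limma, edgeR or DESeq2, and 1 had an unadjusted limma p under 0.05, against 22.4% of all tested genes. That gene, Irf5, had 2.88 ± 1.18 against 1.06 ± 0.537 FPKM, above without overlap (limma adjusted p = 0.15). Its fragments, 34, 36 and 28 against 26, 32 and 10, overlapped. The log2 fold change of Irf5 was 1.41 from FPKM and 0.69 from fragments. Irf3, Stat3 and Irf2bp1 were not called, the first pair with 15.9 ± 1.41 against 17.3 ± 2.81 FPKM and 65.0 ± 4.35 against 62.2 ± 4.95 FPKM (SD, n = 3 each).

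Of 19 tested sensing genes outside the set, 0 passed the limma test, 6 had an unadjusted p under 0.05, against 22.4% of all tested genes, and edgeR and DESeq2 each called 2. The shares over all genes were 5.45% higher and 4.5% lower with edgeR, and 3.78% and 3.15% with DESeq2. Mb21d1, which encodes the DNA sensor cGAS, had 1.96 ± 0.212 against 3.37 ± 0.576 FPKM, and Adar, an RNA-editing enzyme, had 42.7 ± 2.74 against 49.1 ± 0.145 FPKM. Both lay below without overlap (limma adjusted p = 0.0696 and 0.0965), and edgeR called both (adjusted p = 0.0204 and 0.0329). Traf6 and Ikbke, signalling proteins downstream of the sensors, were not called. The list of negative regulators, not all of them regulators in the strict sense, had 10 tested genes. Of these 10, 0 passed by limma, edgeR or DESeq2. An unadjusted limma p under 0.05 was reached by 4, against 22.4% of all tested genes. These were Ptpn6 at 2.05 ± 0.513 against 4.10 ± 0.688 FPKM, Ptpn2 at 19.9 ± 1.57 against 17.2 ± 0.419 FPKM, Socs3 at 47.9 ± 2.54 against 53.6 ± 2.42 FPKM and Socs1 at 3.48 ± 0.655 against 5.12 ± 1.06 FPKM. For Ptpn6 the log2 fold change was -0.98 from FPKM and -0.44 from fragments, and its fragments overlapped between the groups.

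The 69 further interferon-stimulated genes that were tested also split by limma, with 5 higher, against 1.83% of all tested genes, and 4 lower, against 1.61%. edgeR called 16 of them and DESeq2 12, both directions together. Over all genes, edgeR called 5.45% higher and 4.5% lower, and DESeq2 3.78% and 3.15%. Ddx60, a helicase that aids RIG-I-like receptors, was higher at 14.2 ± 0.411 against 9.37 ± 0.483 FPKM. Ifitm2, Ifi202b, Tapbp and Lgals3bp were higher with log2 fold changes of 0.28, 0.22, 0.23 and 0.22. Rnf213, a giant ubiquitin ligase, was lower at 73.7, 74.9 and 76.3 FPKM against 97.4, 97.2 and 101.4 FPKM, and Helz2, Sp100 and Parp12 were lower with log2 fold changes of -0.38, -0.37 and -0.26. Of these 9, Rnf213 passed in all 6 fits without 1 library, Ddx60 in 2, Helz2, Ifitm2 and Ifi202b in 1 each, and Sp100, Tapbp, Lgals3bp and Parp12 in 0. Ifitm2 and Ifi202b have near copies in their families, so their reads may have been split in the counting, and Lgals3bp was not called by edgeR (adjusted p = 0.132) or DESeq2 (0.134), nor Sp100 by DESeq2 (0.0791).

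**Figure D5:**
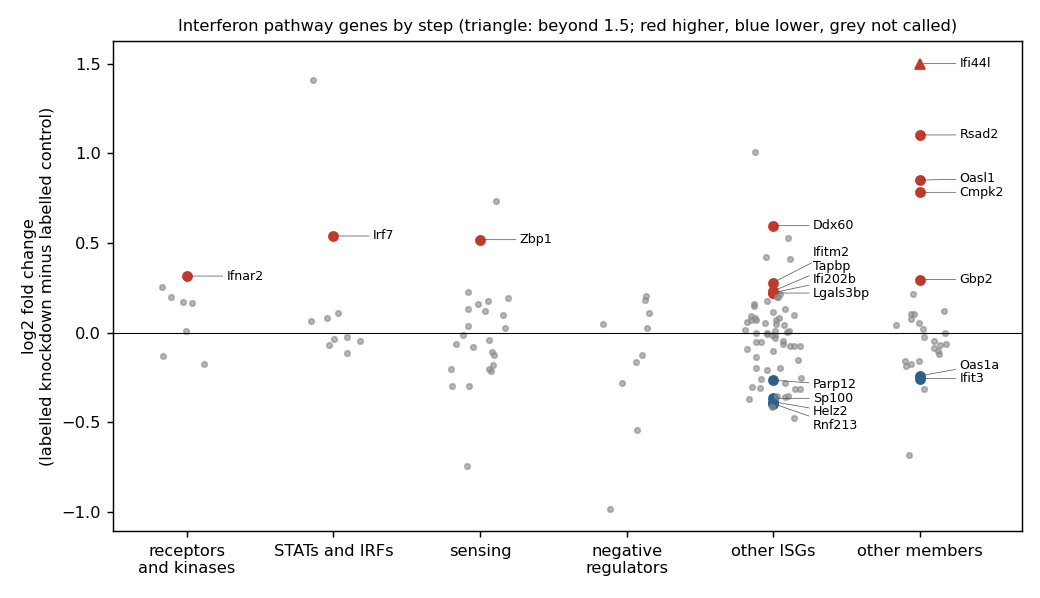
Each point is 1 tested gene, placed by its step in the interferon pathway and its log2 fold change, with members of the set placed at their step where they are transcription factors or sensors. Red genes passed in the higher direction, blue in the lower direction and grey did not pass, and a triangle marks a value beyond the axis. Irf7, Zbp1 and Ifnar2 are the labelled genes among the receptors, factors and sensors, and all 3 lie above 0.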

How the data were processed

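Total RNA freed of ribosomal RNA was made into stranded libraries, 3 labelled Myocd knockdown and 3 labelled control. Per the submitters' processing notes, cutadapt, HISAT2 2.0.4, Cufflinks and Cuffdiff 2.2.1 were used, and mm10 and mm9 are named without roles. The authors deposited FPKM values per gene, normalized to length and library size. The authors also deposited estimated counts, each a fragment number times a constant between 0.916 and 1.20 per library. After division, 89.5% to 90.5% of values lay within 0.01 of a whole number. Starts match GRCm38 after adding 1 base for 6261 genes, against 472 without.

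Rows of 79 repeated symbols were summed. The main test was limma 3.58.1 (R 4.3.3) with an intensity trend on log2(FPKM + 0.1), for all genes with at least 0.5 FPKM (noncoding transcripts 0.1 FPKM) in at least 3 libraries, two-sided, with Benjamini-Hochberg adjustment and a threshold of 0.05. The pseudocount makes differences of weakly expressed genes look smaller than they are. Means are given with SD. edgeR 4.0.16 (quasi-likelihood) and DESeq2 1.42.0 were run on rounded fragments as alternatives, beside other pseudocounts, filters, scalings, a replicate block and libraries left out. The fits were tested on simulated data. The members and lists were chosen with earlier results of these data known. Named were all members, each called pathway gene, up to 4 of smallest p per list, and the 3 paired noncoding transcripts of smallest p. Promoters shown are of called members and relatives, chosen after their values were seen. One pathway gene outside the set is not reported here.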

Additional observations from a re-analysis of the deposited data

How the results depend on the processing

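No called member reversed under any alternative. Rsad2 passed in all 20, and over single genes 252 values kept a call, 144 lost one, 29 gained one, 0 reversed and 550 had none in either fit, 37 of these with a changed sign. Against 7 higher and 2 lower members, limma without trend called 4 and 0, limma with the replicate block 4 and 0 (Ifit3, Oas1a, Oasl1, Cmpk2, Gbp2 and Ifi44l lost, adjusted p = 0.0537 to 0.0702, and Ifitm3 gained), and limma without both replicate 3 libraries 3 and 0. The lower members numbered 1 with median centring, 7 with edgeR, 5 with DESeq2, 6 with edgeR without a filter (which did not call Ifi44l), 8 with edgeR and the block, and 7 with edgeR without both replicate 3 libraries, which was chosen after seeing the data. Leaving out 1 library gave 1 to 3 higher and 0 to 1 lower. Over all genes, 213 higher and 187 lower (53.3% higher) became 266 and 150 (63.9%) with median centring, 77 and 67 without trend, 630 and 520 with edgeR, 437 and 364 with DESeq2, 614 and 554 with edgeR without a filter, 910 and 805 with edgeR and the block, 48 and 28 without both replicate 3 libraries, 805 and 703 with edgeR without them, and 29 to 104 and 13 to 88 without 1 library. With the limma block, 100 were lower. Against 6 higher and 4 lower pathway genes, quantile normalization gave 3 higher, no trend 1 and 2, the limma block 2 lower, edgeR 12 lower, DESeq2 8 lower, edgeR without a filter 12 lower, edgeR with the block 10 and 17, no replicate 3 libraries 1 and 1, edgeR without them 12 and 15, and 1 library left out 0 to 2 and 1 to 2. For paired noncoding transcripts, a pseudocount of 0.01 called 1 lower, and leaving out 1 library 0. The cause of these shifts was not tested, beyond the fewer libraries of the fits that leave some out. Libraries of the same number deviated together weakly or not at all (r = 0.04, -0.00 and 0.10), so the numbers are not taken as pairs. Not every library correlated best with its own number, but both replicate 3 libraries did. Their r with other numbers in the opposite group ran from -0.09 to -0.02. Depth limits Ifi44l and Mx1, and of the 9 called members only Rsad2 passed in every fit without 1 library.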
